A study of Homo sapiens with 12 samples.

Results

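The genes described here are 33 genes of cholesterol and fatty acid synthesis and of its control, chosen by name from the known pathway, out of 17589 genes in the expression table. The choice was made with earlier results of these data known. These genes were measured by RNA-seq in cells labelled as YT, an established human NK-like lymphoid line, after lentiviral infection. The 4 groups carried eGFP (CTRL), hnCD16 (a high-affinity CD16a that resists cleavage), FR1 (hnCD16-2B4-DAP10-CD3ζ) or FR2 (hnCD16-DAP10-CD3ζ), with the receptor constructs under the constitutive hEF1A promoter and no stimulation. Each group had 3 libraries, and the labels do not state that these came from separate cultures (the paper speaks of independent experiments for in vitro work as a whole, without naming RNA-seq), so p-values measure the spread between libraries, which may be technical. The libraries held 17714550 to 18729013 counts. Of the 33 genes, 32 passed the filter on low counts and were tested, and ABCG1, a cholesterol exporter with 0 to 6 counts in any library, was not.

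Cells make cholesterol from acetyl-CoA through the mevalonate pathway, which ends in farnesyl diphosphate, and through later enzymes that join farnesyl units into squalene and reshape it into sterols. When membrane cholesterol is low, SCAP carries the transcription factors encoded by SREBF1 and SREBF2 to the Golgi for release, and the INSIG proteins hold them back when sterols are plentiful. Oxysterol-responsive LXR receptors act in the opposite direction and are known to raise genes of cholesterol efflux.

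The label was checked first, because every comparison of FR1 or FR2 with the other groups rests on it. FCGR3A, whose sequence hnCD16 and both fusion receptors carry and whose reads could be shared with its near-identical copy FCGR3B, had 0 counts in each CTRL library and 453 to 480 in hnCD16, while FR1 had 559 to 567 and FR2 had 1012 to 1132. The libraries labelled CTRL and hnCD16 carried fewer NK markers than FR1 and FR2, with 6 of 15 at 1 CPM (counts scaled by library size) or more in every library, against 11 of 15. The perforin gene PRF1 had 5 to 13 counts there and 6854 to 9722 in FR1 and FR2. NCR3, an activating NK receptor gene, went the other way, with 101 to 109 counts in CTRL and hnCD16 and 0 to 17 in FR1 and FR2, and KLRD1, which encodes CD94, had 202 to 267 against 225 to 282. Mostly through GZMB and NKG7, summed TPM (length-scaled transcript abundance) over 15 NK markers was 94.0 to 102 in CTRL and hnCD16 and 7554 to 8250 in FR1 and FR2. Of 10 tested T cell markers, 9 were lower in FR1 and FR2. The T cell receptor subunit gene CD3D had 7757 to 9903 counts in CTRL and hnCD16 and 0 to 3 in FR1 and FR2, while CD3E kept 595 to 717 there, and the costimulatory receptor gene CD28 was higher, with 51 to 74 counts against 1572 to 2258. The 11 T cell markers summed to 1794 to 2023 TPM against 80.8 to 103 TPM. The 4 B cell markers in the table summed to at most 24.9 TPM in any library, but moved apart, since PAX5 had 0 to 5 counts in CTRL and hnCD16 and 656 to 828 in FR1 and FR2, while CD79A and CD79B were lower there. The 5 myeloid markers summed to at most 5.85 TPM. With CD3D high and PRF1 near 0, the libraries labelled CTRL and hnCD16 go against the NK label in part of its markers, and the effect of a fusion receptor and a difference between the cell cultures cannot be told apart in any comparison across these pairs of groups. In bulk RNA, fewer cells of a type and less RNA per cell cannot be told apart either. The comparisons of hnCD16 with CTRL and of FR1 with FR2 stay within each pair, but there too each construct was carried by its own transduced and sorted cells.

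Promoter windows of a selection of the genes are shown here so that the letters can be read beside the expression. They run from 250 bases before to 50 bases after the annotated start, on the gene's own strand, from RefSeq on GRCh38.p14, and capitals mark the CCAAT box (CCAAT, or ATTGG on the other strand), the E-box CACGTG and the sterol regulatory element core TCACNCCAC. HMGCS1 (chr5:43313363-43313662, minus strand, the more upstream of 2 annotated windows) and LSS (chr21:46228725-46229024, minus strand) are synthesis genes that were lower in FR1 and FR2. SREBF2 (chr22:41832855-41833154, plus strand) encodes the main sterol-regulated transcription factor. SCD (chr10:100346983-100347282, plus strand), MYLIP (chr6:16128836-16129135, plus strand) and ABCA1 (chr9:104928106-104928405, minus strand) were higher.
HMGCS1: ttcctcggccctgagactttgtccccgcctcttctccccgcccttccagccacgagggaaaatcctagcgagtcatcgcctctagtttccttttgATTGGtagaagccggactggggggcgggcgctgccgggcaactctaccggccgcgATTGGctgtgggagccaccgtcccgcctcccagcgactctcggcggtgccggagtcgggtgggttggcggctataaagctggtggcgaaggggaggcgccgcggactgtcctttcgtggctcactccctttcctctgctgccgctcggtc
LSS: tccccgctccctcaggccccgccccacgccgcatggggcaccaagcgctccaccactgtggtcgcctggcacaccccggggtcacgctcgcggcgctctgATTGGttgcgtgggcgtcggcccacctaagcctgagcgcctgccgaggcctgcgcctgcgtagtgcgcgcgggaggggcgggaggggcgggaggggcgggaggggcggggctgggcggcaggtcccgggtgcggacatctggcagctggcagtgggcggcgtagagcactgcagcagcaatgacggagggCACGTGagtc
SREBF2: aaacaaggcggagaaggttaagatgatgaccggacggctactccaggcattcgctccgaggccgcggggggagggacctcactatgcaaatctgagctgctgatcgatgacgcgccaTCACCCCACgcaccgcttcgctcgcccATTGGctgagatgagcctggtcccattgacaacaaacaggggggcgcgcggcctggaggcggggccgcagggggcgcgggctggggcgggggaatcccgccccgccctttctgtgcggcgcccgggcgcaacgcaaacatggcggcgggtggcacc
SCD: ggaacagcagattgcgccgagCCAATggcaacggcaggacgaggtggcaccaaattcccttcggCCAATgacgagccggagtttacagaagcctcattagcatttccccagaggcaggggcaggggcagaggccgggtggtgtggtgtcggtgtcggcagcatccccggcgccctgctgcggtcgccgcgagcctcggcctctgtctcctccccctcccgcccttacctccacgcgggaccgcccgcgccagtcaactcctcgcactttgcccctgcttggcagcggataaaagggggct
MYLIP: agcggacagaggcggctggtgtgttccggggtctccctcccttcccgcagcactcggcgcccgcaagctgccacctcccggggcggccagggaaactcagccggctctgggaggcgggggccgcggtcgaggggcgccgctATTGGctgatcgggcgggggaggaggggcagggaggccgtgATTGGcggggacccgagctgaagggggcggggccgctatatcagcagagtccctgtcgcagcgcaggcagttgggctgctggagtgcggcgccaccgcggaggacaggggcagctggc
ABCA1: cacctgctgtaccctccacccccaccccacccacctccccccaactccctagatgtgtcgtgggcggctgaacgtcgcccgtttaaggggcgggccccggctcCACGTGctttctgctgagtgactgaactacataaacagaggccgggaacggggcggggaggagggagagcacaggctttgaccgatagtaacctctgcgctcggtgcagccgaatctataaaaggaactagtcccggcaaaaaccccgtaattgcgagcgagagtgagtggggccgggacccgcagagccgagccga
Windows were found for 28 of the 33 genes, and not for FDFT1, SQLE, ACAT2, ABCG1 and FASN. On either strand, CCAAT was present in 21 of these 28 genes (75%) and in 39.7% of all 27305 genes with a window, and the GC box GGGCGG in 27 of 28 (96.4%) against 48.3%. CACGTG was present in 5 of 28 genes (17.9%) against 8.77%, and TCACNCCAC in 1 of 28 (3.57%), SREBF2, against 1.39%. CCAAT stood in genes that were lower (HMGCS1, LSS) and in genes that were higher (SCD, MYLIP) in FR1 and FR2. It was also absent from genes of both kinds, CYP51A1, which was lower, and PMVK, SREBF1 and ABCA1, which were higher. The 27305 background genes outnumber the 17589 of the expression table, so they include genes outside it. A background of expressed genes was not counted, so these shares do not show that the motifs are particular to this pathway. These matches describe letters in a short window and say nothing of binding.

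Genes of the pathway differed between the fusion receptor groups and the others in both directions. A gene was called a DEG in edgeR's quasi-likelihood test where it changed by 2-fold or more in either direction (log2 fold change of 1) and its p, adjusted by Benjamini-Hochberg, did not exceed 0.05. In FR1 against hnCD16, 6 of the 32 tested genes were higher and 10 lower, where 18.7% of all 13657 tested genes were higher and 19.6% lower. In FR2 against hnCD16, 6 were higher and 11 lower, with 19.6% and 19.8% of all tested genes. Against CTRL, 5 were higher and 10 lower in FR1 (18.3% and 19.8% of all tested genes), and 5 were higher and 9 lower in FR2 (18.7% and 19.6%). The contrast of the mean of FR1 and FR2 with the mean of CTRL and hnCD16 gave 6 higher and 10 lower, with 18.5% and 19.5% of all tested genes, so that 50% of the 32 genes were DEGs beside 37.9% of all. Thus the share of genes that were lower exceeded its background in these comparisons, while the share that was higher was close to it. The genes were chosen with earlier results of these data known, so this excess is a description, and whether it exceeds chance was not tested. The median log2 fold change of the 32 genes in that contrast was -0.39, beside -0.03 over all tested genes. PMVK, SREBF1, ABCA1, MYLIP and SCD were DEGs and higher in all 4 pairwise comparisons, which share their controls, and HMGCS1, ACAT2, FDFT1, SQLE, LSS, CYP51A1, TM7SF2, STARD4 and ACACA were DEGs and lower in all 4. For ACACA in FR2 against hnCD16 this did not hold with GC-content offsets, a correction for the base composition of transcripts added after the data were seen (log2 fold change -0.98). Beside these 5 higher and 9 lower genes of 32, 2090 of all 13657 tested genes were DEGs and higher in all 4 comparisons. Another 2242 were DEGs and lower in all 4, so being called in all 4 sets no single gene apart. At any fold, an adjusted p of at most 0.05 was reached by 31 genes in FR1 against hnCD16 (79.1% of all tested genes), 28 in FR2 against hnCD16 (80.1%) and 31 in the pooled contrast (84.2%), so a small difference in these comparisons sets no gene apart.

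**Figure D1:**
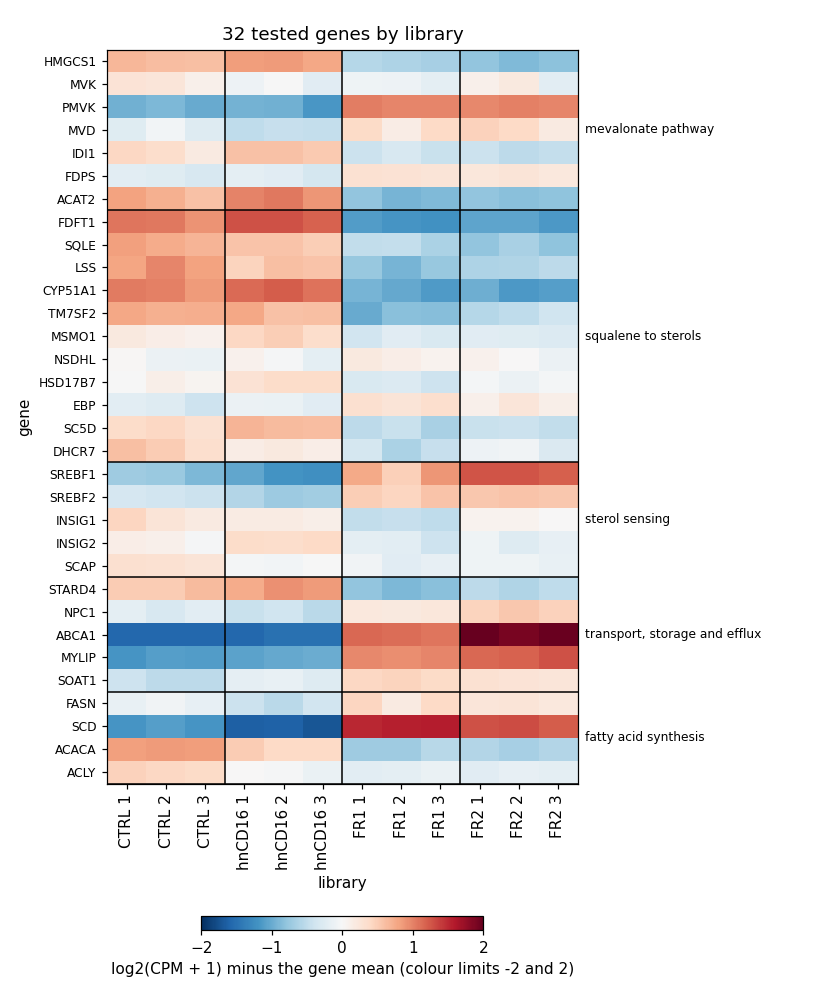
Level of each of the 32 tested genes (rows, by role) in each of the 12 libraries (columns), as log2 of CPM (counts scaled by TMM library sizes) plus 1 minus the gene's mean over libraries. Red is above and blue below the mean, and most rows change colour between hnCD16 and FR1, with PMVK, SREBF1, ABCA1, MYLIP and SCD red in FR1 and FR2.

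In the mevalonate pathway the first enzymes were lower and a later kinase was higher. ACAT2, the cytosolic thiolase that joins acetyl-CoA units, had TPM of 191, 189 and 179 in CTRL and 199, 214 and 199 in hnCD16, beside 55.6, 50.9 and 53.4 in FR1 and 57.0, 53.6 and 55.8 in FR2. HMGCS1, the HMG-CoA synthase, had TPM of 125, 126 and 129 in CTRL and 126, 132 and 130 in hnCD16, beside 46.4, 45.4 and 44.5 in FR1 and 40.9, 37.7 and 39.8 in FR2. For both genes every FR1 and FR2 library lay below every other library. The log2 fold change of ACAT2 was -1.87 (SE 0.06, adjusted p = 1.26e-14, edgeR) in FR1 and -1.82 (SE 0.06, adjusted p = 1.65e-14) in FR2 against hnCD16, and that of HMGCS1 was -1.44 (SE 0.05, adjusted p = 7.7e-15) and -1.66 (SE 0.05, adjusted p = 1.12e-15). PMVK, the phosphomevalonate kinase, had TPM of 55.5, 60.9 and 58.6 in CTRL and 51.2, 52.2 and 47.0 in hnCD16, beside 200.0, 195 and 199.9 in FR1 and 197, 199.6 and 198 in FR2. Its libraries fell into non-overlapping sets in the opposite direction, at 2.05 (SE 0.06) for FR1 and 2.04 (SE 0.06) for FR2 against hnCD16 on the log2 scale. The later enzymes moved less. FDPS, which makes farnesyl diphosphate, rose against hnCD16 by 0.54 in FR1 and 0.49 in FR2 on the log2 scale, and MVD, the mevalonate diphosphate decarboxylase, by 0.86 and 0.89. IDI1, the isopentenyl diphosphate isomerase, had log2 fold changes of -0.98 in FR1 and -1.05 in FR2 against hnCD16, so only the change in FR2 was called a DEG. MVK, the mevalonate kinase, had 89 to 148 counts per library and overlapping groups, and its log2 fold change of -0.11 in the pooled contrast (95% interval -0.30 to 0.08) did not pass the test.

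Of the 11 genes from squalene to sterols, 6 were DEGs and lower in the pooled contrast (19.5% of all tested genes) and 0 were DEGs and higher (18.5%). FDFT1, squalene synthase and the entry into the sterol branch, had the highest mean TPM of the 33 genes in CTRL and hnCD16, with 381, 394 and 366 in CTRL and 395, 411 and 400.1 in hnCD16. It had 71.9, 69.2 and 68.5 in FR1 and 78.1, 76.7 and 71.3 in FR2. All fusion receptor libraries lay far below the rest, and FDPS took the first rank in FR1 and FR2. The log2 fold change of FDFT1 was -2.43 (SE 0.06, adjusted p = 5.69e-17, edgeR) in FR1 and -2.34 (SE 0.06, adjusted p = 8.32e-17) in FR2 against hnCD16. CYP51A1, the lanosterol demethylase, had TPM of 50.9, 52.4 and 49.0 in CTRL and 49.9, 54.1 and 51.9 in hnCD16, beside 11.2, 10.6 and 9.99 in FR1 and 11.1, 9.66 and 10.1 in FR2. Again no fusion receptor library reached the others, and its log2 fold change against hnCD16 was -2.23 (SE 0.07) in FR1 and -2.28 (SE 0.07) in FR2. LSS, which closes squalene epoxide into lanosterol, had 12.1 to 20.4 TPM in CTRL and hnCD16 and 4.50 to 5.98 TPM in FR1 and FR2. SQLE, the squalene epoxidase, had 41.7 to 54.7 TPM against 15.9 to 19.6 TPM. TM7SF2, a sterol reductase, had 15.0 to 19.3 TPM against 3.96 to 6.80 TPM. In each of these 3 genes the ranges did not overlap. Such separation was common among the genes described here. In CPM, the FR1 and FR2 libraries lay above all others for 12 genes, below all others for 17 and overlapped them for 4. The share of all tested genes with such separation was not counted, so separation alone sets no gene apart here. The log2 fold changes in FR1 and FR2 against hnCD16 were -1.42 and -1.17 for LSS, -1.11 and -1.32 for SQLE, and -1.77 and -1.27 for TM7SF2. SC5D, a late sterol desaturase, was a DEG against hnCD16 (-1.21 in FR1, -1.13 in FR2) and below the threshold against CTRL (-0.92 and -0.84). The remaining steps changed by less than 2-fold in the pooled contrast. There MSMO1 had a log2 fold change of -0.56, DHCR7, the last enzyme to cholesterol, of -0.67, HSD17B7 of -0.41, NSDHL of 0.13, and EBP, a sterol isomerase, of 0.46, all past the test. The sign of NSDHL turned in limma on TPM. Summed TPM over these 11 genes was 798 to 843 in CTRL and hnCD16 and 368 to 386 in FR1 and FR2. FDFT1 carried most of this fall, and without it the sums were 412 to 449 and 296 to 312. Expected counts of FDFT1, LSS and ACACA include another annotated copy of their transcripts, so their reads could have been divided between copies before they were summed.

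**Figure D2:**
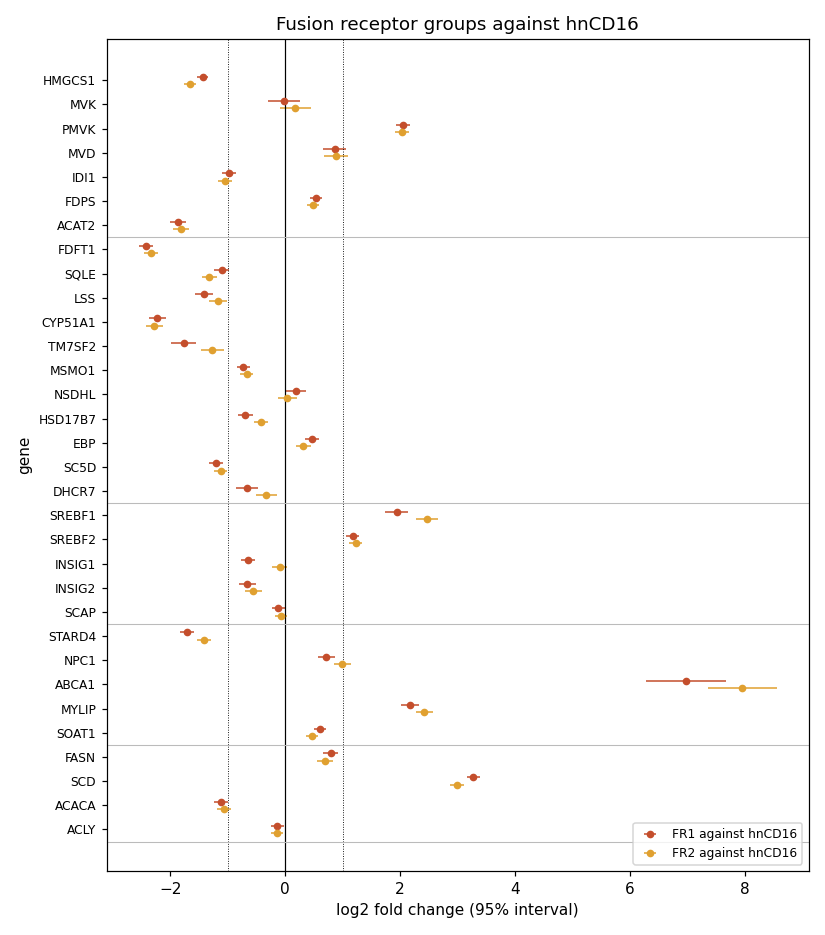
Log2 fold change of each tested gene in FR1 and in FR2 against hnCD16 (horizontal axis) with 95% intervals, ordered by role. Dotted lines mark changes of 1 in either direction, and the points of FR1 and FR2 lie on the same side of 0 for each gene except MVK, whose intervals include 0.

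Among the genes that sense sterols, both transcription factor genes were higher while their partners were lower or close to 0. SREBF1 had TPM of 9.03, 9.34 and 8.25 in CTRL and 6.63, 5.88 and 5.95 in hnCD16, beside 22.8, 19.2 and 25.3 in FR1 and 35.0, 34.0 and 33.1 in FR2. The 4 groups did not overlap and FR2 was the highest. The log2 fold change against hnCD16 was 1.94 (SE 0.09, adjusted p = 1.67e-12, edgeR) in FR1 and 2.47 (SE 0.09, adjusted p = 3.65e-14) in FR2. SREBF2, the main factor for cholesterol genes, had 46.4 to 48.0 TPM in CTRL and 33.4 to 35.9 in hnCD16, while FR1 had 71.3 to 78.9 and FR2 had 77.8 to 79.1. Against hnCD16 its change on the log2 scale was 1.17 for FR1 and 1.23 for FR2, and it fell below the threshold against CTRL (0.88 and 0.94). INSIG1 had 46.1 to 60.5 TPM in CTRL and hnCD16, while FR1 had 28.4 to 29.5 and FR2 had 41.5 to 43.1. In the pooled contrast INSIG1 had a log2 fold change of -0.45, INSIG2 of -0.46 and SCAP of -0.27, none of them DEGs. In FR2 against hnCD16 the log2 fold changes of INSIG1 (-0.10, adjusted p = 0.129, edgeR) and SCAP (-0.07, adjusted p = 0.206) did not pass the test, and that of INSIG1 was 0.06 with GC-content offsets. In the libraries where SREBF2 mRNA was higher, the 18 mevalonate and sterol synthesis genes, many of which its protein is known to induce, went both ways. In the pooled contrast 12 of them were lower at any fold, among them HMGCS1, FDFT1, SQLE, LSS and CYP51A1, and 5 were higher, PMVK, MVD, FDPS, EBP and NSDHL. By the same adjusted p, 5909 of all 13657 tested genes were lower and 5589 higher. RNA levels do not show how much of the SREBF2 protein was processed, and a link between SREBF2 and these genes was not tested.

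Of the 5 tested genes of cholesterol transport, storage and efflux, ABCA1 and MYLIP were DEGs and higher in the pooled contrast and STARD4 a DEG and lower, where 18.5% and 19.5% of all tested genes were. The untested exporter ABCG1 had 0 to 4 counts in CTRL, 3 to 6 in hnCD16 and 0 to 2 in FR1 and FR2. ABCA1, the exporter of cholesterol to lipoproteins, had 0, 0 and 0 counts in CTRL and 0, 1 and 1 in hnCD16, beside 96, 94 and 91 in FR1 and 199, 177 and 187 in FR2. Against CTRL, at a floor of 3 counts per library, FR1 was at least 35.8-fold higher and FR2 at least 70.4-fold higher. Against the 2 counts of hnCD16 the ratio was 150.3 in FR1 (95% exact interval 41.2 to 1247) and 296 in FR2 (81.5 to 2448), intervals that cover counting error only. MYLIP, the ligase that marks lipoprotein receptors for degradation, had TPM of 3.46, 3.45 and 3.46 in CTRL and 3.01, 3.28 and 3.51 in hnCD16, beside 14.1, 14.6 and 14.7 in FR1 and 16.6, 16.7 and 17.9 in FR2. FR1 and FR2 were above every other library, with log2 fold changes against hnCD16 of 2.17 (SE 0.08) and 2.42 (SE 0.07). STARD4, a carrier of cholesterol inside cells, went the other way, from 37.5 to 45.1 TPM in CTRL and hnCD16 to 11.9 to 16.6 TPM in FR1 and FR2, with log2 fold changes against hnCD16 of -1.71 and -1.41. NPC1, which exports cholesterol from lysosomes, and SOAT1, which esterifies it for storage, rose by log2 fold changes of 0.74 and 0.68 in the pooled contrast. NPC1 in FR2 against hnCD16 lay at the DEG threshold, with a log2 fold change of 0.996 that was not called.

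The 4 fatty acid genes split. SCD, the desaturase that makes oleate, had TPM of 8.11, 9.04 and 8.85 in CTRL and 5.33, 5.54 and 5.42 in hnCD16, beside 48.0, 50.5 and 51.9 in FR1 and 42.2, 42.1 and 40.2 in FR2. The 4 groups did not overlap, and the log2 fold change against hnCD16 was 3.27 (SE 0.06, adjusted p = 6.89e-19, edgeR) in FR1 and 2.99 (SE 0.06, adjusted p = 2.2e-18) in FR2. ACACA, the carboxylase that commits acetyl-CoA to fatty acids, had TPM of 15.0, 16.1 and 16.5 in CTRL and 10.9, 10.5 and 10.9 in hnCD16, beside 4.42, 4.54 and 5.08 in FR1 and 4.97, 4.6 and 4.93 in FR2. FR1 and FR2 lay below both other groups, with log2 fold changes against hnCD16 of -1.12 and -1.07. FASN, the fatty acid synthase, had log2 fold changes of 0.79 and 0.69 against hnCD16, and ACLY, which supplies cytosolic acetyl-CoA, of -0.14 and -0.15. Against CTRL, ACLY was at -0.61 and -0.62 and FASN at 0.47 and 0.37.

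Other genes of lipid metabolism, from a list of 62 of which 56 were tested, gave 11 higher and 11 lower DEGs in the pooled contrast (19.6% each), close to the 18.5% and 19.5% of all tested genes, with a median log2 fold change of 0.20. By the naming rule, the highest were ACSL1, which activates long fatty acids (log2 fold change 9.13, 0 to 6 counts in CTRL and hnCD16 and 1486 to 1562 in FR1 and FR2), LRP1, a lipoprotein receptor (7.02), and DGAT2, which makes triglyceride (5.21). The lowest were HSD17B12, an enzyme of fatty acid elongation (-12.74, 2000 to 2649 counts against 0 to 2), SOAT2, which esterifies cholesterol (-8.85), and RXRA, a partner of LXR (-7.53). Of these, ACSL1, LRP1, DGAT2, HSD17B12, SOAT2 and RXRA were near 0 counts in CTRL and hnCD16 or in FR1 and FR2, so their fitted changes depend on the prior count and are not bounds.

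hnCD16 and CTRL, which share the T cell gene pattern, differed by small amounts, and 0 of the 32 genes were DEGs by edgeR, DESeq2 and limma, where 0.527% of all tested genes were DEGs by edgeR. At an unadjusted p under 0.05 there were 26 genes (81.2%), beside 49.4% of all tested genes. At any fold, 11 genes were higher and 13 lower with an adjusted p of at most 0.05, beside 21.6% and 21.4% of all tested genes, with log2 fold changes between -0.52 and 0.31. These changes moved with the GC content of the transcripts. Spearman's rho with GC content was -0.68 over the 32 genes and -0.51 over the 13471 tested genes with a value, and genes within a library share its base composition. Of the 18 genes under 50% GC, 11 were higher and 4 lower in hnCD16, and of the 14 others 0 were higher and 9 lower. With GC-content offsets in the fit, 13 genes passed in place of 24, and 11 were shared, while the share of all tested genes that passed fell from 43% to 27.6%. The fatty acid genes SCD, ACACA and ACLY were lower in both fits, with log2 fold changes of -0.52, -0.41 and -0.47 without the offsets and -0.57, -0.41 and -0.36 with them. SCD had 441, 477 and 453 counts in CTRL and 299, 303 and 289 in hnCD16, which do not overlap. FDFT1, HSD17B7, STARD4 and ACAT2 were higher in both fits, and SQLE, SREBF2, SCAP and NPC1 were lower in both. The other 13 genes called without the offsets did not pass with them, and EBP and INSIG1 passed only with them.

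FR1 and FR2 share the NK gene pattern, and their constructs differ by the 2B4 domain. FCGR3A also differed, with 559 to 567 counts in FR1 and 1012 to 1132 in FR2. The domain, the construct level and a difference between the cultures cannot be told apart here. FR1 against FR2 gave 0 DEGs among the 32 genes by edgeR, DESeq2 and limma, where 1.93% of all tested genes were DEGs by edgeR. In edgeR, 15 genes (46.9%) had an unadjusted p under 0.05, close to the 43.8% of all tested genes. At any fold, 4 genes were higher and 10 lower in FR1, beside 17.7% and 18.5% of all tested genes. Lower in FR1 were ABCA1 (log2 fold change -0.98, SE 0.12, adjusted p = 1.61e-05, edgeR), INSIG1 (-0.55, SE 0.06, adjusted p = 3.47e-06) and SREBF1 (-0.53, SE 0.08, adjusted p = 7.25e-05). ABCA1 had 91 to 96 counts in FR1 and 177 to 199 in FR2, INSIG1 28.4 to 29.5 TPM against 41.5 to 43.1, and SREBF1 19.2 to 25.3 TPM against 33.1 to 35.0, with no overlap in any of the 3. TM7SF2, DHCR7, STARD4, NPC1, HSD17B7, MYLIP and LSS were lower by log2 fold changes between -0.50 and -0.25. Higher in FR1 were SCD (0.28), SQLE (0.22), HMGCS1 (0.22) and SOAT1 (0.15). With GC-content offsets 15 genes passed, beside 33.9% of all tested genes, and 10 were shared. HMGCS1, SQLE, LSS and SOAT1 were no longer among them, and MSMO1, EBP, SC5D, INSIG2 and FASN passed only with the offsets. No difference was detected for the entry enzyme FDFT1, with an interval of the log2 fold change of -0.20 to 0.04, or for PMVK, with -0.10 to 0.13.

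**Figure D3:**
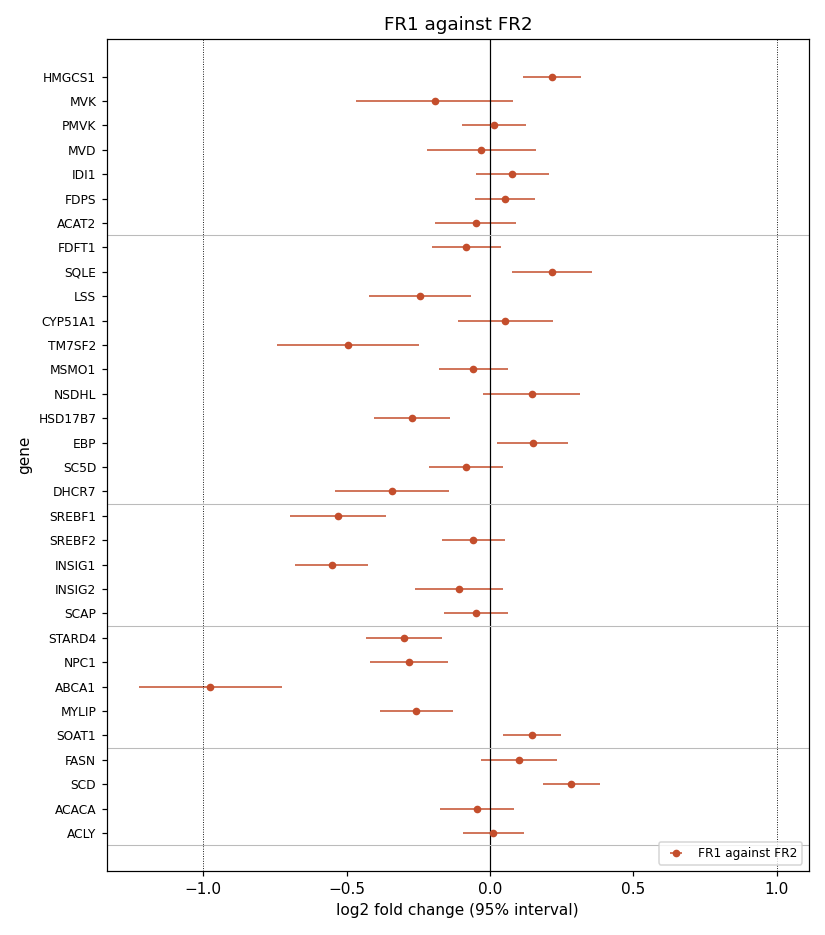
Log2 fold change of FR1 against FR2 (horizontal axis) with 95% intervals for the 32 tested genes, ordered by role. The lowest point is ABCA1 at -0.98, followed by INSIG1 and SREBF1.

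Transcripts were compared as shares of each gene's counts, for 29 genes with more than 1 annotated transcript. RSEM estimates these shares from overlapping sequences, so they carry more error than gene counts. The leading transcript held at least 80% in every library in ACAT2, HSD17B7, PMVK and SQLE. Of 170 transcripts of these genes, 4 had shares that did not overlap between the fusion receptor libraries and the others and differed by 10 percentage points or more. NM_001242824 of FDPS was the leading transcript of its gene, and all 4 are named after their values were seen. The same count was not made over the transcripts of all genes, so these 4 do not set their genes apart. In FDPS, NM_001242824 held 48.8% ± 5.1 (SD, n = 3) in CTRL and 50.7% ± 3.6 in hnCD16, beside 37.1% ± 2.4 in FR1 and 26.1% ± 6.2 in FR2, while NM_001135822 went the other way, from 5.44% ± 5.7 and 7.69% ± 1.8 to 19.3% ± 6.1 and 26.2% ± 7.6. In SREBF1, NM_001321096, which is not its leading transcript over all libraries, held 41.7% ± 4.6 in CTRL and 34.7% ± 8.2 in hnCD16, beside 1.03% ± 1.8 in FR1 and 13.2% ± 3.7 in FR2. In ACLY, NM_001303275 held 13.4% ± 4.4 and 12.5% ± 0.49 in CTRL and hnCD16, beside 0% in each FR1 library and 4.33% ± 3.2 in FR2. On summed TPM the 4 transcripts kept their direction and did not overlap.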

How the data were processed

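Per the paper's methods and the labels, the authors depleted ribosomal RNA (the labels also name oligo(dT) beads), cleaned the reads in SOAPnuke, aligned them by HISAT2 2.1.0 to GRCh38.p13 and counted them in RSEM 1.3.1. The submitters' processing notes also name Bowtie2 2.3.4.3 and DESeq2 1.4.5. The deposited expected counts are the authors' RSEM estimates for genes and transcripts and are not normalized, and the deposited TPM values come from the same reads. Whether counting used strand is not given in the sources used here. FPKM, normalised count and average columns were not used here.

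Expected counts were rounded, and 13657 genes passed edgeR's filterByExpr by group. R 4.3.3 and edgeR 4.0.16 gave TMM factors and a quasi-likelihood fit over the 4 groups together, without covariates, with Benjamini-Hochberg adjustment over all tested genes in each comparison. DEG thresholds follow the paper's methods. TPM gives levels between genes, and fold changes come from counts. This fit was tested on simulated counts for FR1 against hnCD16, with 200 genes changed by a log2 fold change of 2, where 200 of 200 were called and 0 others among 13429 tested genes.

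The members and lists were chosen with earlier results of these data known. The text names all 33 genes, FCGR3A, markers that check the label, and, of other lipid genes, the 3 highest and 3 lowest log2 fold changes among DEGs that averaged 1 CPM or more. Promoter motifs were searched on both strands. GC content is the median over GENCODE v44 transcripts matched by symbol, found for 98.6% of tested genes. The replicates of a group differed by more than sampling noise, with a chi-square per gene of 2.04 to 12.4. Alternatives were library size only, RLE factors, limma 3.58.1 with log2(TPM + 1) or with log2(TPM + 0.1), DESeq2 1.42.0, other filters, unrounded counts, only the groups compared, the replicate block, each library left out and, added after the data were seen, GC-content offsets. Figures were drawn with matplotlib 3.10.9.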

Additional observations from a re-analysis of the deposited data

How the results depend on the processing

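Of 3960 values of single genes under the alternatives, 12 no longer passed the DEG threshold, 23 newly passed it and 56 changed sign, of which 47 had an adjusted p above 0.05 in both fits. The other 9, with an adjusted p of at most 0.05 in either fit, were small. NSDHL turned to -0.0021 and -0.0022 in FR1 against CTRL, -0.14 and -0.15 in FR2 against CTRL and -0.0093 and -0.0096 in the pooled contrast, in limma on log2(TPM + 1) and on log2(TPM + 0.1). FDPS in hnCD16 against CTRL turned from 0.0025 to -0.14 in both and to -0.11 by library size only. The cause was not tested. Changes of call lay near the threshold, in IDI1, SC5D, DHCR7, NPC1, SREBF2, ABCA1 in FR1 against FR2 and ACACA (-0.98 with GC-content offsets in FR2 against hnCD16), apart from ABCA1 in limma on log2(TPM + 1), where FR1 against hnCD16 gave 0.90 and FR1 against CTRL 0.91. The count of DEGs among the 32 genes in FR1 against FR2 was 1 by library size only and 1 with GC-content offsets, and 0 to 1 with a library left out (ABCA1 without FR1 replicate 1 or without FR2 replicate 2). The count at any fold in hnCD16 against CTRL was 13 with GC-content offsets, 19 in limma on log2(TPM + 1) and 22 in DESeq2, and 23 to 24 with a library left out. Scaling by library size only moved the median of all tested genes by up to -0.19 on the log2 scale, in FR1 against CTRL. SREBF2 in the pooled contrast ranged down to 0.89 and was then no DEG in limma on either TPM scale, by library size only or with GC-content offsets. SC5D in the pooled contrast was no DEG without FR1 replicate 3, nor was DHCR7 in FR1 against CTRL without CTRL replicate 1 or without FR1 replicate 2. Same-numbered libraries did not deviate together in every pair of groups (mean correlations -0.03 to 0.25). The lowest mean was that of FR1 with FR2. The highest was that of CTRL with hnCD16, where libraries of other numbers had a mean of -0.13. The cause of these correlations was not tested. With the replicate block, the counts of DEGs were 16 in FR1 against hnCD16 and 17 in FR2 against hnCD16, as without it, and at any fold 26 in hnCD16 against CTRL and 15 in FR1 against FR2. Of 116 shares of leading transcripts, 26 moved by more than 1 SD on summed TPM. ABCG1 and transcripts of low genes were limited by depth.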
